A study of Homo sapiens with 10 samples.

Results

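The TGF-β and BMP signalling genes described here are 49 of the 62656 genes in a deposited RNA sequencing table of PC3 cells. They were chosen by gene symbol and comprise ligands, latent TGF-β binding proteins, receptors, SMADs, inhibitors, secreted antagonists and the ID target genes, all of which were found in the table. PC3 is a human prostate cancer cell line, labelled epithelial, that was established from a bone metastasis. The cells were starved overnight and then kept for 24 h in RPMI-1640 with L-glutamine and either 1 µM of GW3965, a synthetic agonist of the Liver X Receptors (LXRs), or the vehicle DMSO. There were 5 libraries per condition, numbered 1 to 5 in the sample titles. All were made from the same cell line, and nothing says whether they came from separate cultures, so p-values measure only the spread between these libraries. GW3965 was compared with DMSO to see how LXR activation changes the transcriptome of these cells.

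TGF-β and BMP ligands are secreted dimers that bring together type I and type II receptor kinases at the cell surface. In the TGF-β and activin arm, the activated receptors phosphorylate SMAD2 and SMAD3, and in the BMP arm they phosphorylate SMAD1, SMAD5 and SMAD9. Both groups join SMAD4 and enter the nucleus, where the ID genes are classical targets of the BMP arm. TGF-β restrains the growth of normal prostate epithelium and can promote epithelial to mesenchymal transition in carcinoma cells, while BMPs are studied in prostate cancer for their part in bone metastasis.

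Values are RPKM, the reads per kilobase of gene scaled between libraries, so that levels can be compared between genes. The libraries held from 30429384 to 41636379 reads, as recovered from the steps of the RPKM values. The keratin genes KRT8 and KRT18 had means of 36.6 and 49.6 RPKM, but the epithelial cadherin gene CDH1 had 0.285 RPKM. The summed level of the 4 epithelial markers ran from 74.1 to 101 RPKM with DMSO and from 77.4 to 99.6 RPKM with GW3965. The immune markers PTPRC, CD3E and CD68 stayed at a summed level of at most 0.0962 RPKM, the endothelial markers PECAM1, CDH5 and VWF at 0.765 RPKM and the fibroblast markers DCN, LUM, PDGFRA and COL3A1 at 5.01 RPKM, most of it from COL3A1 with a mean of 3.47 RPKM. Of the prostate luminal markers, KLK3 had no reads. In bulk RNA, fewer cells that express a gene and less of its RNA per cell cannot be told apart.

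None of the TGF-β and BMP genes changed at an adjusted p under 0.05. The test was limma on log2(RPKM + 0.1), two-sided, with Benjamini-Hochberg adjustment over 20402 genes whose mean reached 0.5 RPKM, a filter that 39 of the 49 genes passed. Of those 39 genes, 0 were called, against 32 of all tested genes (0.157%, with 0.147% higher and 0.0098% lower), and the lowest adjusted p was 0.283 for FST. At an unadjusted p under 0.05 there were 5 genes, 4 higher and 1 lower with GW3965, or 12.8%, where all tested genes gave 6.99% (4.64% higher and 2.36% lower). With voom on the recovered reads, 0 of the 39 were called too, against 63 over the whole table. An unadjusted p under 0.05 was reached by 6 of the 39 with voom, where the whole table gave 6.68%. In 3 genes (FST, TGFBR2 and TGFBR3), or 7.69% of the 39, the GW3965 values all exceeded the DMSO values, where the groups did not overlap for 1.84% of all tested genes (1.35% higher and 0.49% lower). No test of the list as a whole was made.

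**Figure D1:**
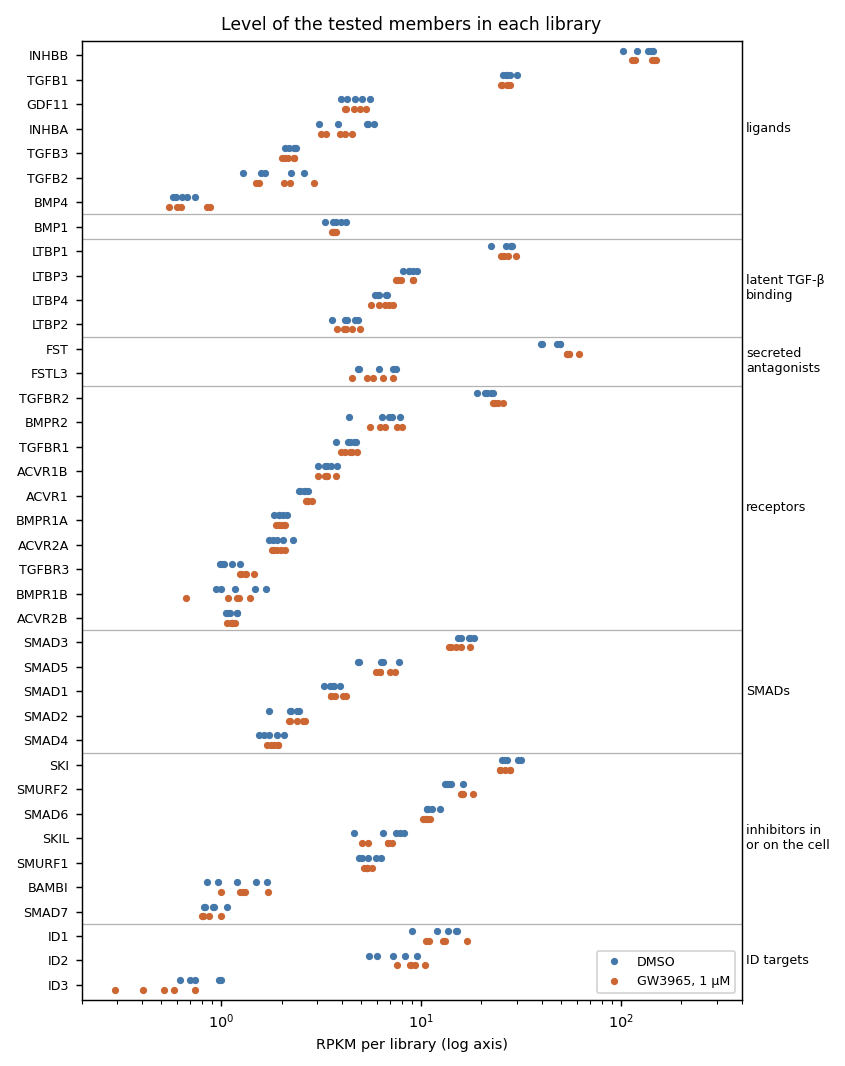
Level of the 39 tested genes in each library, as RPKM on a log axis, with the 5 DMSO libraries in blue and the 5 GW3965 libraries in orange, ordered by role. INHBB, with a mean of 131 RPKM, stands above all other genes, the only BMP ligand shown is BMP4 with 0.671 RPKM, and the groups of points are separate for FST, TGFBR2 and TGFBR3.

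The 2 arms were set side by side by their log2 fold changes, GW3965 over DMSO. In the TGF-β and activin arm, 20 of 21 genes were tested, 10 with a value above 0 and 10 below, and the median was -0.0029. In the BMP arm, 11 of 20 genes were tested, 7 above and 4 below 0, with a median of 0.068. The 8 genes that serve both arms (BMP1, SMAD4, SMAD7, ACVR2A, ACVR2B, BAMBI, SMURF1 and SMURF2) were all tested, with 3 above and 5 below 0 and a median of -0.010. Over all tested genes the median was 0.0034 and 51.1% of values were above 0. Under the filter of 0.5 RPKM were 9 of 20 genes of the BMP arm and 1 of 21 in the TGF-β and activin arm, and of these ID4 alone had no reads.

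Among the 11 ligand genes of the list, RNA of the TGF-β and activin arm was by far the more abundant. INHBB encodes the βB subunit of activin and inhibin. Its level in DMSO libraries 1 to 5 was 102, 135, 141, 144 and 120 RPKM, and in GW3965 libraries 1 to 5 it was 113, 117, 142, 146 and 148 RPKM, so the groups overlapped. INHBB alone made up from 71.7 to 78.2% of the RPKM of the 11 ligand genes in a library. TGFB1, which encodes the most widely expressed TGF-β, averaged 27.4 ± 1.69 RPKM in DMSO and 26.4 ± 1.13 RPKM in GW3965 libraries (SD, n = 5). GDF11, a ligand that signals through activin receptors, stood at 4.69 ± 0.627 and 4.64 ± 0.485 RPKM (SD, n = 5), and TGFB3 at 2.26 ± 0.116 and 2.18 ± 0.136 RPKM (SD, n = 5). TGFB2 ranged from 1.29 to 2.59 RPKM with DMSO and from 1.49 to 2.92 RPKM with GW3965. Each of these genes overlapped between the conditions. Exons of HNRNPUL1 overlap 215 bases of TGFB1 on the opposite strand, and TGFB2-OT1 overlaps 1371 bases of TGFB2 on the same strand, so reads of these pairs may be shared. The 6 ligand genes of this arm summed to 169.5 ± 18.5 RPKM with DMSO and 172 ± 18.6 RPKM with GW3965 (SD, n = 5).

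INHBA, which encodes the βA subunit of activin, had the lowest log2 fold change of the TGF-β and activin arm. In DMSO libraries 1 to 5 it had 5.35, 5.79, 5.40, 3.06 and 3.85 RPKM, and in GW3965 libraries 1 to 5 it had 3.92, 4.13, 3.33, 3.17 and 4.52 RPKM. DMSO libraries 1 to 3 were above all other libraries, while DMSO library 4 was the lowest of the 10. The log2 fold change was -0.27 ± 0.17 (SE; limma adjusted p = 0.839), not past the threshold. Without DMSO library 4 it was -0.41 ± 0.14 (SE; limma adjusted p = 0.458).

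Of the 5 BMP ligands among the 49 genes, BMP4 alone passed the filter. It had 0.571, 0.594, 0.736, 0.670 and 0.638 RPKM in DMSO libraries 1 to 5 and 0.627, 0.881, 0.845, 0.602 and 0.548 RPKM in GW3965 libraries 1 to 5, on 55 to 109 reads per library. The groups overlapped, with a log2 fold change of 0.09 ± 0.17 (SE; limma adjusted p = 0.961). BMP6 had a mean of 0.196 RPKM on 133 reads in each condition, and BMP5 had 29 reads over the DMSO libraries and 44 over the GW3965 libraries. BMP7 had 6 and 14 reads, with at most 4 in any library. BMP2 had 7 and 4 reads, and with at most 3 reads in any library it was given no fold change. These 5 BMP ligand genes summed to 0.899 ± 0.0663 RPKM with DMSO and 0.978 ± 0.162 RPKM with GW3965 (SD, n = 5). Outside the 49 genes, BMP8B and BMP3 passed the filter too, BMP8B with a higher mean than BMP4 (1.5 RPKM) and BMP3 with 0.537 RPKM, and BMP8A had 0.391 RPKM. BMP8A and BMP8B are closely related copies, so that their reads may be split between them. By limma, the adjusted p was 0.935 for BMP8B and 0.989 for BMP3. BMP1, despite its name, encodes a protease that cleaves chordin and procollagens, and acts on both arms. It had 3.29, 3.97, 4.20, 3.74 and 3.60 RPKM in DMSO libraries 1 to 5 and 3.64, 3.69, 3.67, 3.58 and 3.73 RPKM in GW3965 libraries 1 to 5, within the DMSO range. Its exons overlap 461 bases of the annotated gene AC105206.1 on the same strand.

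TGF-β is stored in the matrix bound to the latent TGF-β binding proteins, whose 4 genes were all expressed. LTBP1 was the most abundant of them, with 26.6, 28.1, 28.2, 28.4 and 22.2 RPKM in DMSO libraries 1 to 5 and 27.1, 25.9, 24.97, 25.7 and 29.9 RPKM in GW3965 libraries 1 to 5. The groups overlapped, and DMSO library 5 was the lowest. LTBP3, LTBP4 and LTBP2 followed with means over all libraries of 8.53, 6.39 and 4.3 RPKM. The log2 fold changes of the 4 genes ran from -0.10 for LTBP3 to 0.04 for LTBP4, and the lowest adjusted p was 0.87.

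FST encodes follistatin, which binds activins and keeps them from their receptors, and was the most abundant antagonist gene of the list. It had 39.6, 49.3, 49.6, 47.9 and 40.2 RPKM in DMSO libraries 1 to 5 and 54.9, 53.5, 55.0, 53.3 and 61.2 RPKM in GW3965 libraries 1 to 5, on 3581 to 5883 reads per library. The groups did not overlap, since the lowest GW3965 value was 53.3 RPKM and the highest DMSO value 49.6 RPKM. The means were 45.3 ± 5.02 and 55.6 ± 3.21 RPKM (SD, n = 5), and the log2 ratio was 0.30 ± 0.08 (SE) at an unadjusted p of 0.00316, which was not past the threshold (limma adjusted p = 0.283). The exact permutation test gave p = 0.00794, which is the smallest that 5 libraries against 5 allow and is not adjusted for the number of genes. Without GW3965 library 5, the highest, the log2 fold change was 0.26, and over all 19 alternative settings it lay between 0.25 and 0.33. The FST level relative to INHBB was from 0.333 to 0.386 with DMSO and from 0.366 to 0.484 with GW3965, with an overlap between the groups. FST lies on the + strand of chromosome 5 of GRCh38, chr5:53480409-53487134 in GENCODE 29, and its exons overlap no other annotated exon.

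For the other antagonists the groups overlapped. FSTL3, a relative of follistatin, averaged 6.1 ± 1.24 RPKM in DMSO and 5.83 ± 1.02 RPKM in GW3965 libraries (SD, n = 5; limma adjusted p = 0.977). The BMP antagonists GREM1 and CHRD were both under the filter. GREM1 had 59 reads over the DMSO libraries and 73 over the GW3965 libraries (exact permutation test, p = 0.397), and CHRD had 8 and 15 reads (exact permutation test, p = 0.365). GREM1 is among the genes that the study singled out partly on these libraries, as are ID2 and TGFBI, so their direction here is not independent evidence.

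Receptors of both arms were expressed. In order of their mean over all libraries, TGFBR2 had 22.5 RPKM, BMPR2 6.64, TGFBR1 4.36, ACVR1B 3.39, ACVR1 2.65, BMPR1A 1.99, ACVR2A 1.93, TGFBR3 1.2, BMPR1B 1.18 and ACVR2B 1.12 RPKM. The neighbours BMPR1A and ACVR2A, and likewise TGFBR3, BMPR1B and ACVR2B, lay within the spread between libraries. ACVRL1, a receptor known from the endothelium, had at most 11 reads in a library and a mean of 0.032 RPKM. The summed level of the 4 TGF-β and activin receptor genes TGFBR1, TGFBR2, TGFBR3 and ACVR1B was 30.1 ± 1.52 RPKM with DMSO and 32.8 ± 1.51 RPKM with GW3965 (SD, n = 5). That of the 5 BMP receptor genes was 12.4 ± 1.44 and 12.6 ± 1.07 RPKM (SD, n = 5).

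TGFBR2, the type II receptor that binds TGF-β first, was higher in all GW3965 libraries than in any DMSO library. It had 20.7, 21.3, 22.9, 22.2 and 19.0 RPKM in DMSO libraries 1 to 5 and 23.3, 23.0, 23.0, 24.1 and 25.6 RPKM in GW3965 libraries 1 to 5. The groups were close to each other, since DMSO library 3 and GW3965 library 3 differed by less than the spread within either group. The log2 fold change was 0.17 ± 0.06 (SE), at an unadjusted p of 0.0196 (limma adjusted p = 0.563). Over the 19 alternatives it lay between 0.13 and 0.19, and without GW3965 library 5, the highest, it was 0.14.

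TGFBR3 encodes betaglycan, a coreceptor that presents TGF-β to TGFBR2 and also binds inhibin. It had 1.03, 1.00, 1.13, 1.24 and 0.989 RPKM in DMSO libraries 1 to 5 and 1.25, 1.24, 1.33, 1.31 and 1.46 RPKM in GW3965 libraries 1 to 5, on 275 to 432 reads. The groups did not overlap, by a margin of 1.2375 against 1.2397 RPKM between DMSO library 4 and GW3965 library 2. The log2 fold change was 0.27 ± 0.09 (SE), at an unadjusted p of 0.0154 (limma adjusted p = 0.542). With a pseudocount of 1 RPKM, which is near its level, the value for TGFBR3 was 0.16. For TGFBR2 and TGFBR3 the exact permutation test gave p = 0.00794, the smallest it allows, without adjustment. The type I receptor gene TGFBR1 had a log2 fold change of 0.0039 ± 0.08 (SE), and ACVR1B had one of -0.01 ± 0.07 (SE).

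No receptor gene of the BMP arm was past the threshold, and in none were the groups separate. ACVR1, a type I receptor for BMPs, averaged 2.57 ± 0.115 RPKM in DMSO and 2.72 ± 0.0718 RPKM in GW3965 libraries (SD, n = 5), at a log2 ratio of 0.08 (limma adjusted p = 0.864) and overlapping groups. BMPR2, the type II receptor for BMPs, had 7.79, 7.16, 6.36, 4.33 and 6.93 RPKM in DMSO libraries 1 to 5 and 7.54, 7.98, 6.57, 5.53 and 6.19 RPKM in GW3965 libraries 1 to 5. DMSO library 4 was the lowest for BMPR2, as it was for INHBA above. BMPR1B had a log2 fold change of -0.16 ± 0.20 (SE), and BMPR1A one of 0.01 ± 0.07 (SE).

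No SMAD gene was past the threshold in either arm. SMAD3 was the most abundant, with 15.2, 17.3, 18.4, 17.5 and 15.9 RPKM in DMSO libraries 1 to 5 and 14.1, 13.7, 14.9, 15.9 and 17.4 RPKM in GW3965 libraries 1 to 5. The groups overlapped, and the log2 fold change was -0.15 ± 0.08 (SE; limma adjusted p = 0.776). SMAD2, the other SMAD of the TGF-β arm, had one of 0.12 ± 0.10 (SE). In the BMP arm, SMAD5 and SMAD1 had means of 6.3 and 3.7 RPKM and log2 fold changes of 0.13 and 0.08, with standard errors of 0.13 and 0.07. SMAD9 was under the filter, with 161 and 146 reads over the DMSO and the GW3965 libraries. SMAD4, the common partner, averaged 1.77 ± 0.204 RPKM in DMSO and 1.83 ± 0.0983 RPKM in GW3965 libraries (SD, n = 5).

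Of the 7 inhibitor genes of the list that act inside the cell or at its surface, SMURF2 had the lowest p. SMURF2 encodes a ubiquitin ligase that marks SMADs and receptors for degradation. It had 13.8, 16.1, 14.1, 13.4 and 13.1 RPKM in DMSO libraries 1 to 5 and 16.1, 15.7, 16.1, 15.9 and 18.2 RPKM in GW3965 libraries 1 to 5. The groups overlapped only through DMSO library 2, which was above 3 of the GW3965 libraries. The log2 fold change was 0.22 ± 0.07 (SE), at an unadjusted p of 0.00832 (limma adjusted p = 0.42). An exon of CEP95 on the opposite strand overlaps 167 bases of the SMURF2 exons, and how strand was used in the counting is not given in the sources used here. Its relative SMURF1 stood at 5.52 ± 0.599 and 5.37 ± 0.185 RPKM (SD, n = 5), a log2 ratio of -0.03 ± 0.07 (SE).

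SKI and SKIL encode nuclear corepressors that bind SMAD2, SMAD3 and SMAD4. SKI was the most abundant of the inhibitor genes, with 25.8, 25.3, 26.7, 31.6 and 30.5 RPKM in DMSO libraries 1 to 5 and 24.6, 24.8, 27.7, 27.8 and 26.2 RPKM in GW3965 libraries 1 to 5. DMSO libraries 4 and 5 were the highest, and the groups overlapped, with a log2 ratio of -0.09 (limma adjusted p = 0.892). SKIL had 7.79, 8.23, 7.50, 4.62 and 6.41 RPKM in DMSO libraries 1 to 5 and 6.85, 6.84, 5.38, 5.08 and 7.12 RPKM in GW3965 libraries 1 to 5. As with INHBA and BMPR2, DMSO library 4 was the lowest of all. Over the 39 tested genes, that library was the lowest for 7 and the highest for 7, SKI among the latter. The pseudoreceptor BAMBI, which has no kinase, ranged from 0.851 to 1.68 RPKM with DMSO and from 0.996 to 1.71 RPKM with GW3965. Of the inhibitory SMADs, SMAD6, which acts mainly on the BMP arm, had a mean of 10.9 RPKM, and SMAD7, which acts on both arms, had one of 0.882 RPKM. SMAD7 had 0.829, 0.915, 0.904, 1.07 and 0.821 RPKM in DMSO libraries 1 to 5 and 0.991, 0.799, 0.810, 0.866 and 0.813 RPKM in GW3965 libraries 1 to 5, with wide overlap. The log2 fold changes of SMAD6 and SMAD7 were -0.07 ± 0.06 (SE) and -0.08 ± 0.12 (SE).

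The ID genes encode helix-loop-helix proteins that lack a basic region and so keep their partners from DNA. Their log2 fold changes differed in sign, but none was past the threshold. Of these genes, ID1 and ID3 are shown with sequence as classical targets of the BMP arm, and the windows of ID2 and ID4 are not printed. Next to them stands SMAD6, a feedback target of the same arm. The lines give, on the strand of the gene, the 250 bases before the RefSeq start site of ID1 (chr20:31605039-31605288) and SMAD6 (chr15:66701986-66702235), both on the + strand, and 30 bases of the ID3 window (chr1:23559631-23559660, − strand), all from RefSeq on GRCh38.p14. Capitals mark the SMAD palindrome GTCTAGAC or the SMAD box GTCTG, which reads CAGAC on the other strand.
ID1: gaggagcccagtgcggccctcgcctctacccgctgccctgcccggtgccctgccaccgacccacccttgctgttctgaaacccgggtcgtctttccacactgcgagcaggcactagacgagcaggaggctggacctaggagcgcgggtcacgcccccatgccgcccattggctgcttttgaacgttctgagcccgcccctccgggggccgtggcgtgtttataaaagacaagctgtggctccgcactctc
SMAD6: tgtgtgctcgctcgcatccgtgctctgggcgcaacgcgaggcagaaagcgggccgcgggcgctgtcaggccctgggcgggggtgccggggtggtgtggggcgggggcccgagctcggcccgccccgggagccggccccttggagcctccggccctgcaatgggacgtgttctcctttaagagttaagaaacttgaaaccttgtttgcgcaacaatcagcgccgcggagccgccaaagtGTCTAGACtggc
ID3: ggtcttcggcgtCAGACcagccggaggaag
The palindrome of SMAD6 starts 12 bases before the start site, and GTCTAGAC was present in 0.182% of 35116 such windows of all genes. Of the 44 genes of the list with a window, SMAD6 alone held it. The CAGAC of ID3 starts 147 bases before its start site, and GTCTG, which does not occur within that palindrome, was present on one strand or the other in 38% of all windows and in 19 of 44 genes of the list. ID1 and ID2 held neither, while ID4 held GTCTG. The GC-rich SMAD motif GGCGCC was in 16.4% of all windows, in 18 of the 44 genes of the list that had a window (among them SMAD1, SMAD2, SMAD3 and SMAD4) and in none of ID1, ID2 and ID3. A gene can have several windows, so the share of genes and the share of windows are not on the same base. The LXR motif is a direct repeat of AGGTCA with 4 bases of any kind between, and was searched on both strands without mismatches. It was in 5 of 35116 windows of all genes (0.0142%) and in none of those 44 genes. With a match this rare, its absence from 44 genes is uninformative. The windows of FST, TGFBR2, TGFBR3 and SMURF2 held none of these 4 motifs. Such matches describe the letters of these windows and say nothing of the binding of a factor.

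ID1 was the most abundant of the ID genes and had the log2 fold change nearest to 0 of the 3. It had 9.02, 15.0, 14.9, 13.6 and 12.0 RPKM in DMSO libraries 1 to 5 and 10.9, 10.6, 12.9, 13.1 and 16.9 RPKM in GW3965 libraries 1 to 5. Both groups covered nearly the same range, with a log2 fold change of -0.0023 ± 0.16 (SE; limma adjusted p = 0.999).

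ID2 had 8.32, 5.46, 6.02, 9.50 and 7.24 RPKM in DMSO libraries 1 to 5 and 8.78, 8.91, 9.28, 10.4 and 7.54 RPKM in GW3965 libraries 1 to 5. DMSO libraries 2 and 3 were the lowest, and DMSO library 4 was above all GW3965 libraries but number 4. The log2 fold change was 0.32 ± 0.14 (SE), not past the threshold (unadjusted p = 0.0511 and adjusted p = 0.715 by limma). Exons of ID2-AS1 overlap 38 bases of ID2 on the opposite strand.

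ID3, in contrast, had the lowest log2 fold change of all 39 tested genes. It had 0.697, 0.994, 0.972, 0.738 and 0.619 RPKM in DMSO libraries 1 to 5 and 0.295, 0.518, 0.406, 0.736 and 0.578 RPKM in GW3965 libraries 1 to 5. The groups overlapped through GW3965 library 4, and the values rested on few reads, from 30 to 63 with DMSO and from 15 to 39 with GW3965. The log2 fold change was -0.60 ± 0.23 (SE), at an unadjusted p of 0.0231 (limma adjusted p = 0.58), and the exact permutation test gave p = 0.0238. With a pseudocount of 1 RPKM the log2 fold change was -0.26, since that pseudocount is above the level of the gene. ID4 had no reads in any library, which allows up to 3 reads in each. TGFBI, a target of TGF-β, had 1 read over the DMSO libraries and 5 over the GW3965 libraries and was given no fold change.

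Beyond these genes, 111 other genes of the pathway were looked up, of which 68 passed the filter. They were listed with earlier results of these data known, so the counts that follow are not independent of that choice. By limma, 1 was higher at an adjusted p under 0.05 and 0 were lower, where 0.157% of all tested genes were called. An unadjusted p under 0.05 was found for 5 (7.35%), near the 6.99% of all tested genes. The groups did not overlap for 4 of the 68 (5.88%), where all tested genes gave 1.84% (1.35% higher and 0.49% lower). The called gene was NOG, which encodes noggin, a secreted antagonist that binds BMPs. It had 10.4, 11.1, 12.4, 10.1 and 7.77 RPKM in DMSO libraries 1 to 5 and 21.9, 22.2, 21.0, 19.7 and 25.5 RPKM in GW3965 libraries 1 to 5, with no overlap and a log2 ratio of 1.09 ± 0.11 (SE; limma adjusted p = 0.00244). With the replicate number as a block in the model, NOG was not past the threshold.

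The other 4 genes were not past the threshold. THBS1 encodes thrombospondin-1, which can release active TGF-β from its latent form. It had 5.96, 5.52, 5.60, 6.23 and 5.49 RPKM in DMSO libraries 1 to 5 and 7.94, 7.40, 7.04, 6.73 and 6.92 RPKM in GW3965 libraries 1 to 5, with no overlap (log2 ratio 0.32 ± 0.06 (SE), limma adjusted p = 0.12). NEDD4L, a ubiquitin ligase for activated SMAD2 and SMAD3, stood at 5.32 ± 0.254 and 6.23 ± 0.178 RPKM (SD, n = 5), also with no overlap (log2 ratio 0.22 ± 0.05 (SE), limma adjusted p = 0.206). Outside these genes and NOG, the groups did not overlap for 1 SMAD cofactor gene, whose unadjusted p by limma was not under 0.05. FBN2, a fibrillin to which latent TGF-β complexes attach, had a log2 fold change of 0.17 (limma adjusted p = 0.581), and HEY1, which can respond to BMPs, had one of 0.16 (limma adjusted p = 0.699).

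Target genes gave no call in either arm. Of 19 genes known to respond to TGF-β, 17 were tested, 10 with a log2 fold change above 0 and 7 below, with a median of 0.058. CCN2, the gene of connective tissue growth factor, stood at 48 ± 4.62 and 49.6 ± 3.68 RPKM (SD, n = 5). PMEPA1, a TGF-β-induced inhibitor of SMAD signalling that was listed among the 18 SMAD regulators, had a log2 fold change of -0.15 ± 0.07 (SE; limma adjusted p = 0.734). Of 11 genes known to respond to BMPs, 5 were tested, 1 above and 4 below 0, with a median of -0.12. Among 22 other ligand genes, 5 were tested, and GDF15 was the most abundant at 29.2 ± 3.42 and 27.9 ± 3.83 RPKM (SD, n = 5). Exons of 17 of the 49 genes overlap an exon of another annotated gene in GENCODE 29, of 15 on the opposite strand, so that reads could have been shared there if strand was not used.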

How the data were processed

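The libraries were made from total RNA depleted of ribosomal RNA per the methods, while the labels name polyA RNA. Alignment was with Hisat2, and the authors deposited RPKM values per gene. The submitters' processing notes name hg38, HISAT2 2.1.0, HTSeq 0.11.2 and DESeq2 1.22.2, whereas the methods name the mouse genome. All gene identifiers are human. Each value above 0 was a whole number of reads (100%, tolerance 0.02 reads) times a step for its gene and library, and the library factors were median-of-ratios size factors. These reads give the depth. Intervals are not given, and read counts cover counting error only. Genes under the filter of 0.5 RPKM were given no fold change here, among them those with at most 3 reads in every library.

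Groups and replicate numbers came from the sample titles. limma 3.58.1 in R 4.3.3 (lmFit, eBayes with a trend) was run on log2(RPKM + 0.1) for 20402 genes whose mean reached 0.5 RPKM. That scale understates changes of low genes. The fit was tried on simulated data with log2 changes of at least 0.5 in size, which does not cover smaller changes. Single genes were also compared by a two-sided exact permutation test of the mean RPKM (scipy 1.17.1). In 19 alternatives, 1 library was left out or the pseudocount, filter, scaling or model was changed. The 49 genes, their assignment to arms, and the lists of other pathway genes and markers were chosen with earlier results of these data known. Of the 49 genes, those with an unadjusted p under 0.05 or groups that did not overlap were given library by library. So were ID1 to ID4, the ends of each arm and the most abundant genes of each role. Among the other pathway genes, those with an unadjusted p under 0.05 were named, and of these NOG and THBS1 were given library by library. BMPR2, SKIL, BMP4 and the other genes with values were named after their values were seen. Of the 111 other genes, all were matched by symbol or synonym. Promoter windows were found for 44 of the 49 genes.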

Additional observations from a re-analysis of the deposited data

Results flagged for a closer look

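For 3 genes, 1 library stood away from the other libraries of its condition. Chance flags about 1 in 20 of such groups, which is 3.9 of the 78 groups examined. The distance to the next library, divided by the whole range of the group (both on the log2 scale), was 0.73 for LTBP1, which had 22.2 RPKM in DMSO library 5 against 26.6 to 28.4 RPKM in the others. It was 0.845 for SMURF2, with 18.2 RPKM in GW3965 library 5 against 15.7 to 16.1 RPKM, and 0.772 for FST, with 61.2 RPKM in GW3965 library 5 against 53.3 to 55.0 RPKM. GW3965 library 5 was the highest of the 10 libraries for 10 of the 39 tested genes, among them FST, SMURF2, TGFBR2 and TGFBR3. Without GW3965 library 5, the log2 fold change was 0.18 for SMURF2, 0.26 for FST, 0.14 for TGFBR2 and 0.23 for TGFBR3.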

How the results depend on the processing

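Over the 19 alternatives, the count of the 49 genes past the threshold stayed at 0, and the median of the TGF-β and activin arm lay between -0.034 and 0.017. The median of the BMP arm lay between 0.022 and 0.082 over the fits that left out 1 library and was 0.016 with library weights. Over all tested genes, 32 were called in the values reported, against 21 without a filter, 20 without the trend, 63 with voom and 56 with library weights, and from 17 to 38 with 1 library left out (17 without GW3965 library 2 or 4, 18 without DMSO library 3 and 19 without GW3965 library 3). The cause was not tested. With the replicate number as a block there were 16. Same-numbered libraries did not deviate together (correlations from -0.138 to 0.16, and for 1 of 5 numbers, number 4, the best partner had the same number), so the libraries share only a number. NOG had an adjusted p of 0.0587 under that block and was past the threshold in the other 18 settings. THBS1 passed with library weights (limma adjusted p = 0.043, against 0.043 to 0.28 over the alternatives). Of 151 log2 fold changes of FST, TGFBR2, TGFBR3, SMURF2, INHBA and ID1 to ID3 under the alternatives, 0 were called and 5 had the other sign, all of ID1, which lay from -0.12 to 0.063 with 1 library left out and above 0 without DMSO library 2, 3 or 4 (0.058, 0.055 and 0.022) or GW3965 library 1 or 2 (0.053 and 0.063). ID3 was not tested where a mean of at least 1 RPKM was required. At this depth, BMP2, TGFBI and ID4 could not be compared, and the other genes under the filter were given without a fold change.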
